A study of Mus musculus with 12 samples.

Results

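The cadherin superfamily genes of sorted embryonic tendon cells are described here, as listed in the expression table of a study of the tendon transcription factor Scleraxis (Scx). The members are the rows whose symbol is Cdh or Pcdh followed by a number, or begins with Pcdha, Pcdhb or Pcdhg. They came to 88 of the 15671 rows of the table. A total of 31 members lie outside the clustered loci, namely 5 classical type I cadherins, 12 classical type II cadherins, 3 other cadherins, 8 delta protocadherins and 3 other protocadherins. The remaining 57 are clustered protocadherins, with 14 genes of the alpha cluster, 21 of the beta cluster and 22 of the gamma cluster. Fat, Dachsous, Cdhr and desmosomal cadherin genes and Pcdh11x fall outside the symbol pattern and were not counted as members. Cdh16, Cdh22, Cdh26 and Pcdhb1 fit the pattern but were not among the 88 rows found.

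RNA was measured by RNA-seq in GFP+ forelimb cells of mouse embryos at E15.5, from 3 Scx-/- mutants and 3 control littermates. All 6 embryos came from crosses of Scx+/- parents that both carried the Scx-GFP transgene, and GFP+ cells are cells in which this reporter, driven by Scx regulatory sequence, was active. In the Scx-/- embryos a LacZ cassette takes the place of the Scx coding sequence on both alleles. The controls are named only as controls in the sample labels and as wild type in the series' design text, while the study's methods call them littermates. The study's results state that cells of wild-type, Scx+/- and Scx-/- embryos were sorted for RNA-seq. Whether any control was Scx+/- is thus not settled by these sources. Scx binding was measured by ChIP-seq with an anti-FLAG antibody in E13.5 forelimbs of Scx Flag/Flag embryos, whose endogenous Scx protein carries a FLAG tag, with 3 ChIP samples set against 3 input samples. Each ChIP sample pooled the forelimb pairs of 10 embryos. Binding was therefore measured in whole forelimbs of an earlier stage, and RNA in the sorted cells of a later one.

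Cadherins are calcium-dependent adhesion proteins of the cell surface. Classical cadherins bind like molecules on neighboring cells through their outer domains, and their tails bind p120 catenin and beta-catenin, which is joined to actin through alpha-catenin. Protocadherins have weaker adhesive contacts and other tails. Delta protocadherins act in cell sorting and migration, while the alpha, beta and gamma protocadherins, best known from neurons, give cells a combinatorial surface identity because each cell uses only some of the many first exons. In the embryonic tendon, cells are held in columns by cell-cell junctions, and Cdh11 and Cdh2 are the cadherins best known from this tissue and its mesenchymal precursors.

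The expression values are the mean FPKM of each group, that is fragments counted per gene and scaled to transcript length and to library size, averaged by the authors over 3 samples. Values of single samples were not analysed here, so that no spread, standard error or test could be given, and no difference below has a replicate check. FPKM is scaled to transcript length, which allows levels of different genes to be set beside each other. A mean ratio is given as the log2 of Scx-/- over control after 0.1 FPKM was added to each mean. A gene is called past the threshold where this ratio reached 1.5-fold and the higher of the group means was at least 1 FPKM. Scx itself had a mean of 41.9 FPKM in Scx-/- cells and 88.6 FPKM in control cells. By in situ hybridization with a coding-sequence probe, the study saw no Scx mRNA in Scx-/- forelimbs at E13.5. The value in Scx-/- cells is thus no measure of intact Scx mRNA, and the part of the gene its reads came from was not examined. The tendon marker Tnmd had 13.8 FPKM in Scx-/- cells and 134.7 FPKM in control cells. Of 8 tendon markers 3 were lower past 1.5-fold, and their summed level was 2594 FPKM in Scx-/- cells and 3177 FPKM in control cells. Xist, the RNA of the inactive X chromosome, had 24.9 FPKM in Scx-/- cells and 174.7 FPKM in control cells, and this RNA is made by female cells. Fewer cells of a type and less RNA per cell cannot be told apart in these pooled cells.

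Cadherin and protocadherin RNA levels lay close together in the Scx-/- and control cells. Of the 88 members, 72 reached 1 FPKM in at least 1 group. Of these 72, 1 was lower past 1.5-fold in Scx-/- cells, against 0.652% of the 12276 genes of the table that reached 1 FPKM. None was higher past 1.5-fold, against 0.619% of all such genes. Both counts were thus near the background shares. The ratio was within 1.2-fold for 66 of the 72 members (91.7%), beside 90.1% of all genes. The alpha and gamma genes share exons within their cluster and so are not separate measurements. Without them, 30 of 36 members (83.3%) were within 1.2-fold and 1 was lower past 1.5-fold. The median log2 ratio of these 36 was 0.0043. The median log2 ratio was 0.04 over the 72 members and 0.02 over the 20 members outside the clusters, beside a median of about 0 over all genes (-0.00051). No test could be made of any of these shares.

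**Figure D1:**
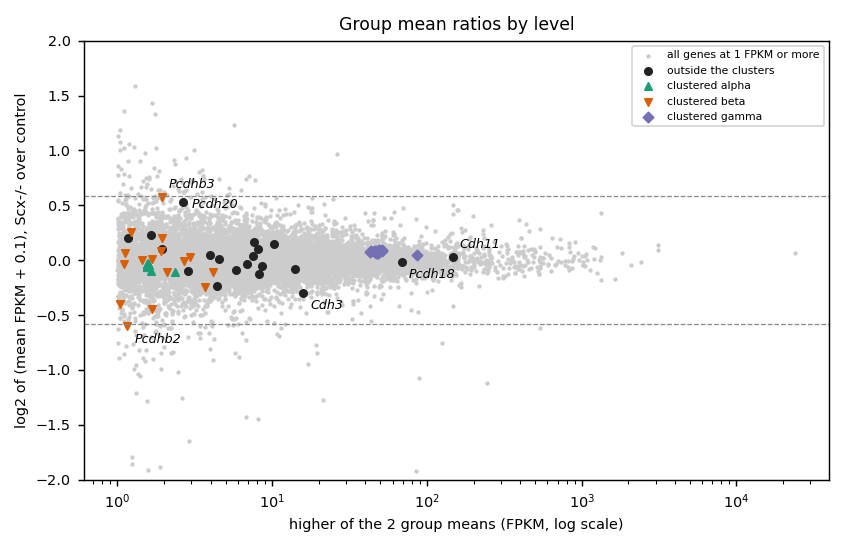
Log2 ratio of mean FPKM plus 0.1, Scx-/- over control, against the higher of the group means (FPKM, log scale), for all genes of at least 1 FPKM (gray) and for members outside the clusters (black), alpha (green), beta (orange) and gamma (purple) genes. Dashed lines mark 1.5-fold and 5 genes fall beyond the plotted range. Pcdhb2, at a log2 ratio of -0.60, is the member below the lower line, Pcdhb3 at 0.57 lies just inside the upper line, and the gamma genes form a tight group between 0.04 and 0.10.

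Cdh11, a type II cadherin of mesenchymal cells also known as OB-cadherin, was the most abundant member. Its mean was 146.5 FPKM in Scx-/- cells and 143.2 FPKM in control cells, a log2 ratio of 0.03, which placed it at percentile 98.3 of all rows of the table. No other classical cadherin came near this level, the next being Cdh2 and Cdh3. Cdh11 lies on the minus strand at chr8:102632095-102785642 (mm10) and was assigned 10 Scx peaks. The peak nearest its TSS (transcription start site) has its center 663 bp downstream, in a noncoding exon sequence of Cdh11, and holds 2 copies of the Scx core. The core was searched on both strands as CAGATG, which reads CATCTG from the other strand. The palindromic form CAGCTG was searched as well. So was the palindromic form CATATG. A peak 42496 bp downstream, in an intron of Cdh11, holds CAGATG followed directly by TGGAAA, the core bound by Nfat transcription factors, with no base between them. The 30-base window around one core of the exonic peak, at chr8:102785016-102785045, and the whole intronic peak, at chr8:102743047-102743246, are shown because they are the peaks inside the body of the most abundant cadherin gene. Both are GRCm38 (mm10) plus-strand sequence, with the Scx core in capitals.
Cdh11 exonic window: cggcccccgcggCATCTGctcctcggcccg
Cdh11 intronic peak: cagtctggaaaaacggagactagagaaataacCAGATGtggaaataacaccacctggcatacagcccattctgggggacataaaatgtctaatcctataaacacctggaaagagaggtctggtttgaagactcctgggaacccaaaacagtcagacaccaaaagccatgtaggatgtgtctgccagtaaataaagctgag
Both of these cores lie within the transcribed region of Cdh11, the other 8 of its peaks lie outside the gene, and the group means of the gene differed by a log2 ratio of 0.03.

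Among the type I cadherins, which bind strongly through a conserved tryptophan at the tip, Cdh2 and Cdh3 were the most abundant. Cdh2 (N-cadherin, the cadherin of mesenchyme, muscle and nerve) had a mean of 13.2 FPKM in Scx-/- cells and 13.9 FPKM in control cells, a log2 ratio of -0.08. Cdh3 (P-cadherin, mainly of epithelium) had 12.9 FPKM in Scx-/- cells and 15.8 FPKM in control cells. Its log2 ratio of -0.30 was the lowest of the 20 members outside the clusters that reached 1 FPKM, and was short of 1.5-fold. Cdh15 (M-cadherin, of muscle precursors) had 7.59 FPKM in Scx-/- cells and 8.28 FPKM in control cells. Cdh4 (R-cadherin) had 6.73 FPKM in Scx-/- cells and 6.88 FPKM in control cells. Cdh1 (E-cadherin, of epithelium) was low, with 1.64 FPKM in Scx-/- cells and 1.39 FPKM in control cells, a log2 ratio of 0.23. Of the 5 type I genes 4 were lower in Scx-/- cells and only Cdh1 was higher, and their summed level was 42.0 FPKM in Scx-/- cells and 46.3 FPKM in control cells.

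Of the 12 type II cadherins, 6 reached 1 FPKM, and all 6 were within 1.2-fold. Behind Cdh11 came Cdh6 (K-cadherin, named from kidney), with 8.25 FPKM in Scx-/- cells and 8.56 FPKM in control cells. Cdh5 (VE-cadherin, of endothelial cells) had 8.13 FPKM in Scx-/- cells and 7.55 FPKM in control cells, a log2 ratio of 0.10. Cdh24 had 3.97 FPKM in Scx-/- cells and 3.83 FPKM in control cells, and Cdh10, known mainly from brain, had 1.94 FPKM in Scx-/- cells and 1.80 FPKM in control cells. Cdh18 stood at the filter, with 1.17 FPKM in Scx-/- cells and 1.003 FPKM in control cells. The remaining 6, Cdh7, Cdh8, Cdh9, Cdh12, Cdh19 and Cdh20, stayed below 1 FPKM in both groups. Cdh12 had the highest log2 ratio of these, 0.61, at 0.904 FPKM in Scx-/- cells and 0.558 FPKM in control cells, and was left out by the filter. Cdh19, a cadherin of Schwann cell precursors, had 0.300 FPKM in Scx-/- cells and 0.172 FPKM in control cells. Cdh11 alone made up most of the type II total of 173.3 FPKM in Scx-/- cells and 168.8 FPKM in control cells.

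Several of these genes mark cells other than tendon cells, whose markers were also present in the sorted samples. For Cdh5, the 7 endothelial markers Pecam1, Kdr, Tek, Emcn, Cldn5, Esam and Tie1 summed to 22.3 FPKM in Scx-/- cells and 22.9 FPKM in control cells, and none of the 5 that reached 1 FPKM was past 1.5-fold. Pcdh12, another endothelial member, had 0.674 FPKM in Scx-/- cells and 0.711 FPKM in control cells. For Cdh1 and Cdh3, 7 of 8 epithelial markers were listed, with a sum of 30.8 FPKM in Scx-/- cells and 27.1 FPKM in control cells. The keratin Krt5 stood at 9.72 FPKM in Scx-/- cells and 7.88 FPKM in control cells. Perp, a gene of epithelial junctions, stood at 3.83 FPKM in Scx-/- cells and 4.93 FPKM in control cells. Perp was the only listed epithelial marker that was lower in Scx-/- cells. Of the members, Cdh1 was higher and Cdh3 lower. For Cdh15, the 8 muscle markers summed to 395.4 FPKM in Scx-/- cells and 361.5 FPKM in control cells, of which Actc1 held 322.7 FPKM in Scx-/- cells and 291.9 FPKM in control cells. The muscle precursor genes Pax7, at 3.23 FPKM in Scx-/- cells and 3.56 FPKM in control cells, Myf5, at 2.24 FPKM in Scx-/- cells and 2.92 FPKM in control cells, and Myod1, at 9.41 FPKM in Scx-/- cells and 9.89 FPKM in control cells, were lower, as was Cdh15. Ttn was lower as well, at 3.22 FPKM in Scx-/- cells and 3.24 FPKM in control cells. Actc1 and the remaining listed muscle markers were higher. Des was at 14.1 FPKM in Scx-/- cells and 11.3 FPKM in control cells. Myh3 was at 9.80 FPKM in Scx-/- cells and 9.65 FPKM in control cells. Myog, of later muscle cells, was at 30.7 FPKM in Scx-/- cells and 28.99 FPKM in control cells. For Cdh19, the 6 Schwann lineage markers summed to 7.58 FPKM in Scx-/- cells and 6.65 FPKM in control cells, with Sox10 at 1.81 FPKM in Scx-/- cells and 1.42 FPKM in control cells. None of these markers was at 0 in either group, none that reached 1 FPKM was past 1.5-fold, and their part in the levels of the members was not tested.

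The other cadherins were represented mainly by Cdh13 (T-cadherin, which has no tail and is held by a lipid anchor). Cdh13 had 5.45 FPKM in Scx-/- cells and 5.80 FPKM in control cells, a log2 ratio of -0.09. Cdh17, a cadherin of intestine, and Cdh23, a tip-link protein of inner ear hair cells, stayed below 0.2 FPKM in both groups. Cdh17 had 0.0596 FPKM in Scx-/- cells and 0.114 FPKM in control cells. Cdh23 had 0.0965 FPKM in Scx-/- cells and 0.194 FPKM in control cells.

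Delta protocadherins were dominated by Pcdh18. Its mean was 68.2 FPKM in Scx-/- cells and 68.9 FPKM in control cells, a log2 ratio of -0.01, the level of percentile 95.8 of all rows. Pcdh7 followed with 10.3 FPKM in Scx-/- cells and 9.32 FPKM in control cells, and Pcdh9 with 7.68 FPKM in Scx-/- cells and 6.82 FPKM in control cells. Pcdh7, Pcdh9 and Pcdh1 belong to the delta subgroup with an additional outer repeat, and Pcdh18, Pcdh10, Pcdh17, Pcdh19 and Pcdh8 to the subgroup without it, several of which bind the actin-regulating WAVE complex. Pcdh19 had 7.47 FPKM in Scx-/- cells and 7.25 FPKM in control cells, a log2 ratio of 0.04. It lies on the X chromosome, where levels may differ with sex, and the part of the Xist difference given above was not tested. Pcdh10 had 4.56 FPKM in Scx-/- cells and 4.53 FPKM in control cells. Pcdh17 was at 3.75 FPKM in Scx-/- cells and 4.42 FPKM in control cells, a log2 ratio of -0.23, and Pcdh1 was at 2.67 FPKM in Scx-/- cells and 2.87 FPKM in control cells. Pcdh8 stayed below 1 FPKM. All 7 delta genes that reached 1 FPKM were within 1.2-fold, and the family summed to 105.1 FPKM in Scx-/- cells and 104.6 FPKM in control cells.

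Pcdh20 had the highest log2 ratio, 0.53, of the members outside the clusters that reached 1 FPKM, with 2.64 FPKM in Scx-/- cells and 1.80 FPKM in control cells. It remained short of 1.5-fold. Pcdh15, the tip-link partner of Cdh23, had 0.444 FPKM in Scx-/- cells and 0.442 FPKM in control cells. In all, 20 members outside the clusters reached 1 FPKM, 11 of them higher and 9 lower in Scx-/- cells, and 18 were within 1.2-fold, Cdh3 and Pcdh20 being the exceptions. Cdh3 stood above Cdh2 in control cells and below it in Scx-/- cells.

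**Figure D2:**
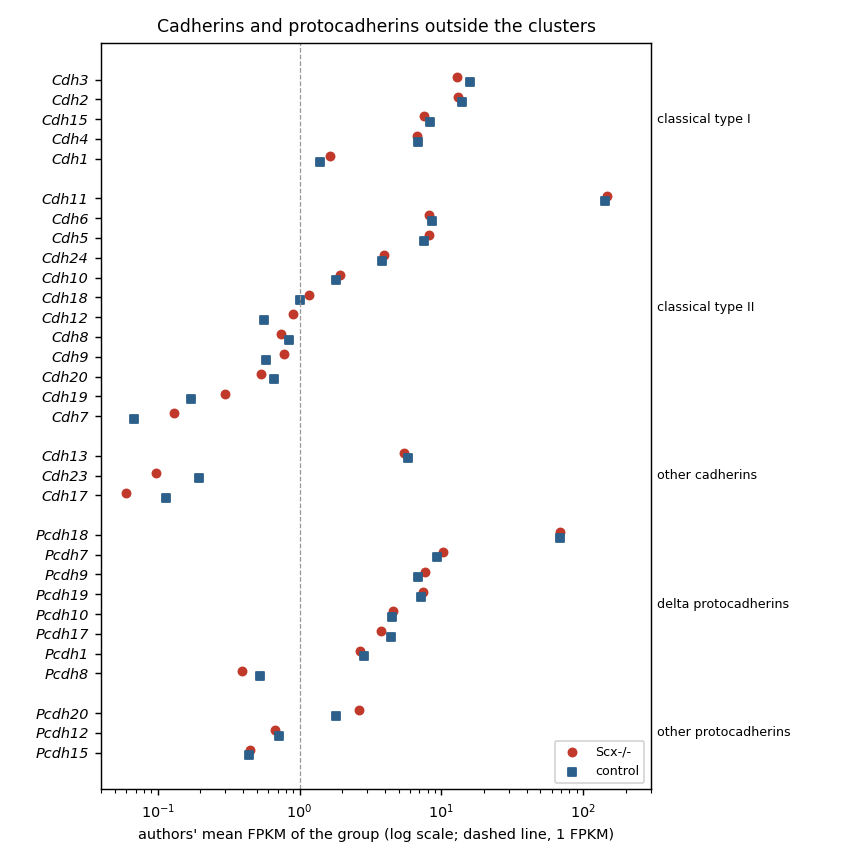
Mean FPKM (log scale) of each of the 31 members outside the clusters, by family, in Scx-/- cells (red circles, drawn above) and control cells (blue squares, drawn below). Each point is the authors' mean of 3 samples and has no error bar, because values of single samples were not analysed here. Cdh11 and Pcdh18 stand far to the right of the rest, and the symbols of most genes above the dashed line at 1 FPKM nearly coincide.

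The clustered protocadherins lie side by side on chromosome 18 (mm10), the alpha cluster first, then beta, then gamma. The alpha and gamma genes each have a first exon of their own and share the last exons of their cluster, while beta genes share no exon in the RefSeq models. All 22 gamma genes had high deposited means, of 43.1 to 86.1 FPKM in Scx-/- cells and of 40.9 to 83.5 FPKM in control cells. These means include the shared exons, so they do not show that each gamma gene is abundant by itself. All 14 alpha genes were low, with means of 1.47 to 2.19 FPKM in Scx-/- cells and of 1.54 to 2.36 FPKM in control cells. The 21 beta genes ranged from 0.463 to 3.81 FPKM in Scx-/- cells and from 0.333 to 4.12 FPKM in control cells. Every gamma gene was slightly higher in Scx-/- cells, with log2 ratios of 0.04 to 0.10, and every alpha gene slightly lower, with log2 ratios of -0.11 to -0.02.

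Since the alpha genes share exons, as do the gamma genes, the directions of single genes within a cluster are not separate measurements. By the RefSeq exon models of GRCm38, the shared exons made up a median of 2860 bp of each alpha gene (53.7% of its exon length) and of 2116 bp of each gamma gene (45.1%). The product of mean FPKM and exon length is proportional to the fragments counted over the exons of a gene and is given here as FPKM x kb. For 4 alpha genes in control cells, Pcdha1, Pcdha8, Pcdha11 and Pcdhac1, this product was the same to within 0.0017%, at 8.18 FPKM x kb. In Scx-/- cells it was the same to within 0.01% for Pcdha1 and Pcdhac1, at 7.81 FPKM x kb. Genes with own exons of different sequence and length thus had equal products. The lowest product of a cluster was therefore taken as an upper limit for its shared exons, and the excess of each gene over it as a lower limit for the part from its own exon, a step chosen after the data were seen. These limits hold only where the RefSeq exon lengths match those behind the authors' FPKM, which are not known.

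In the gamma cluster the lowest product was that of Pcdhgc5, at 215.1 FPKM x kb in Scx-/- cells and 203.1 in control cells, a ratio of 1.06. Pcdhgc3, one of the C-type genes that many cells express in common, stood apart from the other gamma genes. Its mean was 86.1 FPKM in Scx-/- cells and 83.5 FPKM in control cells, and its excess divided by the length of its own exon was 73.3 FPKM in Scx-/- cells and 73.2 in control cells. Of the sum of these own-exon values over the gamma genes it held 50.7% in Scx-/- cells and 50.5% in control cells. The other 20 gamma genes with an exon model had own-exon values of 0 to 9.62 FPKM in Scx-/- cells and of 0 to 9.11 in control cells. Pcdhga10 had 9.62 in Scx-/- cells and 9.11 in control cells, and Pcdhgb7 had 9.45 in Scx-/- cells and 8.08 in control cells. The deposited mean of Pcdhga10 was 51.0 FPKM in Scx-/- cells and 48.2 FPKM in control cells, and the excess was 10.4% of its product in both groups. The deposited mean of Pcdhgb7 was 51.0 FPKM in Scx-/- cells and 47.7 FPKM in control cells, and the excess was 10.2% of its product in Scx-/- cells and 9.29% in control cells. No other gamma gene had a product within 0.01% of the lowest, so the shared part was not measured directly. The own-exon values and the excess shares of a gene's product are therefore lower limits, if the exon lengths used hold. The own-exon values summed to 144.7 FPKM in Scx-/- cells and 145.1 in control cells. The upper limit for the shared exons, per kb, was lower, at 101.6 FPKM in Scx-/- cells and 96.0 in control cells. With the shared exons in every gamma transcript and even coverage, the sum would not exceed that limit. The reason was not tested, so the gamma own-exon values are uncertain. The Pcdhgc3 share of the summed own-exon values is instead an upper limit, since a smaller shared part would raise the value of every gamma gene. Pcdhgb8 had no exon model of this kind and was left out of these values.

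In the alpha cluster Pcdhac2, a C-type gene as well, was the highest, with 2.19 FPKM in Scx-/- cells and 2.36 FPKM in control cells. Its own-exon value was 1.65 FPKM in Scx-/- cells and 1.87 FPKM in control cells, which was 62.6% of the alpha sum in Scx-/- cells and 69.2% in control cells. Pcdha5, at 1.53 FPKM in Scx-/- cells and 1.64 FPKM in control cells, had an own-exon value of 0.163 FPKM in Scx-/- cells and 0.254 in control cells. Pcdha12, at 1.55 FPKM in Scx-/- cells and 1.60 FPKM in control cells, had an own-exon value of 0.141 FPKM in Scx-/- cells and 0.0944 in control cells. Pcdha6 was left out, as its RefSeq model has longer exons than those of the other alpha genes. The plain sum of FPKM over the 57 clustered genes had a ratio of 1.05 in Scx-/- over control cells. Over the 55 genes with comparable exon models the summed FPKM x kb had a ratio of 1.05 as well, and of 1.01 with the lowest product of the alpha and of the gamma cluster counted once.

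The beta genes, each with sequence of its own, gave the one member past the threshold. Pcdhb2 had 0.729 FPKM in Scx-/- cells and 1.16 FPKM in control cells, a log2 ratio of -0.60. Just short of the threshold in the other direction was Pcdhb3, its neighbor on the chromosome, with 1.93 FPKM in Scx-/- cells and 1.26 FPKM in control cells, a log2 ratio of 0.57. The most abundant beta genes were Pcdhb17, with 3.81 FPKM in Scx-/- cells and 4.12 FPKM in control cells, Pcdhb16, with 3.11 FPKM in Scx-/- cells and 3.69 FPKM in control cells, and Pcdhb22, with 2.95 FPKM in Scx-/- cells and 2.89 FPKM in control cells. Of the 16 beta genes that reached 1 FPKM, 8 were higher and 8 lower in Scx-/- cells, and 12 (75%) were within 1.2-fold, beside 78.6% of all genes whose higher mean lay between 1 and 5 FPKM. Beta genes are near copies of one another, and Pcdhb21 and Pcdhb22 overlap in position. No source used here states how reads matching several genes were counted, so the value of each single beta gene is uncertain.

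**Figure D3:**
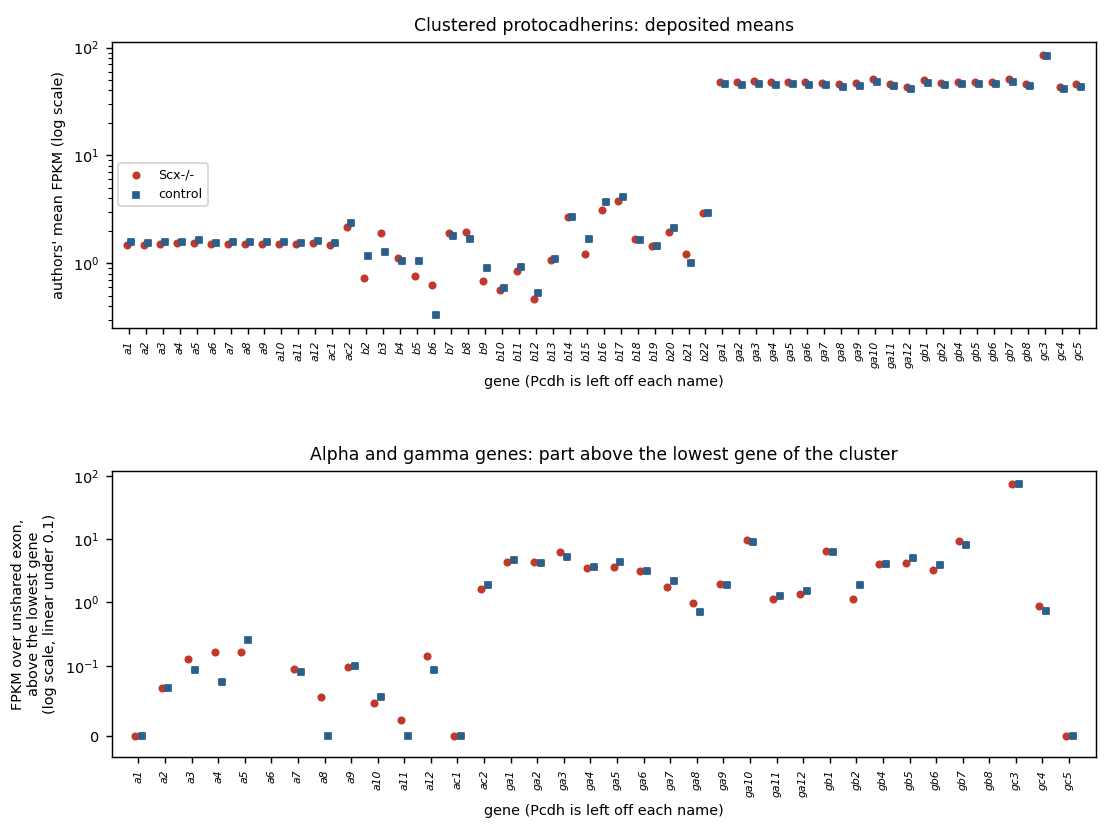
Upper panel, mean FPKM (log scale) of the 57 clustered protocadherins ordered by name within each family, in Scx-/- cells (red circles) and control cells (blue squares). Lower panel, FPKM over unshared exon above the lowest gene of the cluster (log scale, linear under 0.1), for the alpha and gamma genes, with no points for Pcdha6 and Pcdhgb8. The gamma genes are all above 40 FPKM in the upper panel, whereas in the lower panel Pcdhgc3, at 73.3 in Scx-/- cells and 73.2 in control cells, stands alone above the others.

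Genes whose products work with cadherins and protocadherins were examined as lists. None of the genes in these lists that reached 1 FPKM was past 1.5-fold in either direction, beside the shares of all genes given above. Of the catenins 8 reached this level, with a median log2 ratio of 0.02. Ctnnb1 (beta-catenin) had 199.8 FPKM in Scx-/- cells and 198.9 FPKM in control cells, Ctnnd1 (p120 catenin) had 55.5 FPKM in Scx-/- cells and 55.2 FPKM in control cells, and Ctnna1 (alpha-catenin) had 49.2 FPKM in Scx-/- cells and 51.3 FPKM in control cells. In RNA level Ctnnb1 was thus above Cdh11 in both groups, and Ctnnd1 and Ctnna1 were between Cdh11 and Cdh2. Of 9 junction linkers, which tie junctions to actin, the highest were Actn4 at 53.8 FPKM in Scx-/- cells and 56.0 FPKM in control cells, Tjp1 at 35.1 FPKM in Scx-/- cells and 34.1 FPKM in control cells, and Zyx at 32.0 FPKM in Scx-/- cells and 32.3 FPKM in control cells. Of 8 genes that cut or mature cadherins, Mmp14 was the highest, at 96.2 FPKM in Scx-/- cells and 100.7 FPKM in control cells, followed by Psenen, at 28.5 FPKM in Scx-/- cells and 27.5 FPKM in control cells, and Adam10, at 22.5 FPKM in Scx-/- cells and 22.4 FPKM in control cells. The 12 genes for chromatin looping and the choice of clustered promoters, in which Ctcf and cohesin take part, were led by Rad21 (107.1 FPKM in Scx-/- cells and 113.0 FPKM in control cells), Smc3 (97.3 FPKM in Scx-/- cells and 109.4 FPKM in control cells) and Smc1a (103.1 FPKM in Scx-/- cells and 105.9 FPKM in control cells). The 11 effectors of protocadherin tails were led by the WAVE complex genes Nckap1 (47.6 FPKM in Scx-/- cells and 47.7 FPKM in control cells) and Wasf2 (28.3 FPKM in Scx-/- cells and 28.9 FPKM in control cells) and by the kinase gene Fyn (22.1 FPKM in Scx-/- cells and 22.7 FPKM in control cells).

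Scx peaks were assigned to most members outside the clusters and, among the clustered genes, only to Pcdhgc5. The deposited table lists 12097 peaks of 200 bp each, with positions but no height or fold per peak, so peaks are counted here as present. A peak was assigned to a gene where its center fell in the gene's domain, which runs from 5 kb upstream to 1 kb downstream of the TSS and extends on both sides to the domain of the next gene, by at most 1000 kb. Of the 87 members matched to a start (Pcdha10 was not), 25 (28.7%) had at least 1 peak, beside 44.3% of the 14681 matched genes of the table. Outside the clusters the count was 24 of 31 (77.4%), with 89 peaks in 86 separate regions. Of 56 clustered genes only Pcdhgc5 had a peak in its domain, 15969 bp downstream of its TSS in an intron that lies within all gamma genes, without the Scx core. Domains differed in the same way. Their median length was 1587 kb for members outside the clusters, 9.12 kb for clustered members and 101.6 kb for all matched genes. Within a fixed 50 kb of the TSS, 14 of the 31 members outside the clusters had a peak. So did 3 of the 56 clustered genes and 7149 of the 14681 matched genes.

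Among genes with domains of at least 500 kb the members had a peak about as often as the rest, but fewer peaks per Mb. Of 22 such members 18 (81.8%) had a peak, beside 84.3% of all genes with such domains. The number of peaks was 2.09 per Mb of domain for these members and 4.49 per Mb for all genes with such domains. The median domain was 2000 kb for these members and 896.1 kb for all genes with such domains, so the sets were not matched in length. Outside the clusters 16 of 20 (80.0%) of the members at 1 FPKM or more had a peak, with 2.45 peaks per Mb, and 8 of 11 (72.7%) of those below it, with 1.80 per Mb. These differences were not tested.

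Peaks were concentrated on a few members. Cdh11, Cdh2, Cdh4 and Pcdh18 had 10 each, Cdh20 had 9 and Cdh5 had 7. These made 5 peaks per Mb of domain at Cdh11 and at Cdh2, 6.52 at Cdh4, 5.93 at Pcdh18, 5.67 at Cdh20 and 6.58 at Cdh5. Cdh20, with 0.534 FPKM in Scx-/- cells and 0.658 FPKM in control cells, thus had nearly as many peaks as Cdh11, the most abundant member. The Cdh20 peaks formed 8 separate regions, the nearest at -148717 bp from its TSS. Those farthest downstream lay in an intron or the promoter of Rnf152 and were assigned by position only. With domains extended by at most 100 kb, Cdh20 had 0 peaks and Cdh11 had 2. By the main rule, Pcdh7, the fifth most abundant member outside the clusters, had no peak in a domain of 2000 kb. Pcdh20, Cdh9 and Cdh7 had none in domains of 1994 to 2000 kb. Cdh3, Cdh24 and Pcdh12 had none in domains of 40.4 to 70.9 kb. Cdh10, Cdh18 and Cdh8 had 1 each in 2000 kb. Of the peaks lying between Cdh11 and Cdh5, 2 were assigned to both genes, at -696740 and -858771 bp from the Cdh11 TSS.

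A peak within 5 kb of the TSS was found at 7 members, of which 6 are described. Cdh2 had peaks centered at -135 and +515 bp, both in its promoter, taken as 1000 bp upstream to 100 bp downstream of any annotated start, and both without the Scx core. Pcdh9 had one at -231 bp in its promoter and Pcdh18 one at +142 bp in a noncoding exon, again without the core. Cdh11 had the exonic peak at +663 bp shown above, Pcdh10 a pair at -1941 and -2471 bp, and Pcdh15 one at -4549 bp, all with the core. The peaks nearest the starts of Cdh2, Pcdh9, Pcdh18 and Cdh11, with and without the core, were rich in G and C, with 61.5 to 79.0% of bases. Those nearest the starts of Pcdh10 and Pcdh15 had 48% and 37.5%. The mean was 46.9% over the 89 peaks outside the clusters and 53.5% over all peaks.

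The core-holding peaks nearest the TSS of Pcdh10, Pcdh15, Cdh5 and Cdh1 are shown as examples of core-holding sites at members named for their level, their cell type or a peak near the start, those of Pcdh10 and Pcdh15 within 5 kb. They are plus-strand sequence of GRCm38 (mm10) with each Scx core in capitals. The Pcdh10 peak is at chr3:45376385-45376584 in an intron of a noncoding gene beside Pcdh10, and the Pcdh15 peak is at chr10:73817235-73817434 in an intron of a longer Pcdh15 transcript. The Cdh5 peak is at chr8:104070541-104070740, -30985 bp from the Cdh5 TSS and beside the start of Gm8748, and the Cdh1 peak is at chr8:106637015-106637214, in an intron 33763 bp downstream of the Cdh1 TSS.
Pcdh10: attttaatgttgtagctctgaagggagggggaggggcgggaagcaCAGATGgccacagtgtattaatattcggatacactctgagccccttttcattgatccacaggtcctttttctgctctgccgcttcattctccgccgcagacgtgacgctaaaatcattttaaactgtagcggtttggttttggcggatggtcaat
Pcdh15: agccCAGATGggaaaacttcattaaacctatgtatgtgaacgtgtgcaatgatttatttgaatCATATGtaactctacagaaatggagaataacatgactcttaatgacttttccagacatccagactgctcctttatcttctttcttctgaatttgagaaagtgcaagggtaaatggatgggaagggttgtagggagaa
Cdh5: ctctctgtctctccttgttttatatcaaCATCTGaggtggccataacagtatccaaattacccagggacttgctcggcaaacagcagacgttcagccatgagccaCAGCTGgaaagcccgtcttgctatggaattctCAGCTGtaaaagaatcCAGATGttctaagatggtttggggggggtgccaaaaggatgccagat
Cdh1: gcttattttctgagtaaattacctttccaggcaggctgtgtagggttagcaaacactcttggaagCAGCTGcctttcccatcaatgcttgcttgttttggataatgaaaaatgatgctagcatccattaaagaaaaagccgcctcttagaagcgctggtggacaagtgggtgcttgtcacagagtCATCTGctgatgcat
The Cdh5 peak holds 4 cores, a count also reached by a Cdh4 intron peak at +304321 bp, and one of its CAGCTG cores runs into a TGGAAA, with TG in common. The Pcdh15 and Cdh1 peaks hold 2 cores each and the Pcdh10 peak 1.

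The Scx core was present in 63 of the 89 peaks outside the clusters (70.8%), beside 60.3% of all 12097 peaks. Peaks of genes with domains of at least 500 kb held the core more often in general, with 73.8% for the members and 67.8% for all genes. The Nfat core TGGAAA, read on both strands as TGGAAA or TTTCCA, was in 33.7% of the members' peaks and in 31.5% of all peaks. All 9 peaks of Cdh20 held the Scx core, as did 9 of 10 of Cdh4, of which 0 held the Nfat core, 7 of 10 of Cdh11, and 6 of 10 of both Cdh2 and Pcdh18. Neither of the 2 Pcdh19 peaks held the Scx core. Such a match describes the letters in a peak and does not show a bound site.

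Most peaks of the members lay far from the start. The median distance was 220.3 kb over the 91 pairs of a member outside the clusters and a peak, beside 88.1 kb over all pairs in the table. Over 500 kb were 22 pairs (24.2%, beside 9.44% of all pairs), and within 5 kb were 9 (9.89%, beside 21.4%). By location, 46 of the 89 peaks were intergenic (51.7%, beside 33.5% of all peaks), 35 were in introns (39.3%, beside 37.0%), 5 were in promoters (5.62%, beside 22.7%) and 3 were in exons. The long domains given above moved together with these distances, and their part in them was not tested. Of the 10 peaks of Pcdh18, 5 lay in introns of Slc7a11, a cystine transporter gene upstream of it, and so were assigned to Pcdh18 by position only. Of the Cdh5 peaks all 7 lay upstream, whereas those of Cdh11 and Cdh2 lay on both sides.

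**Figure D4:**
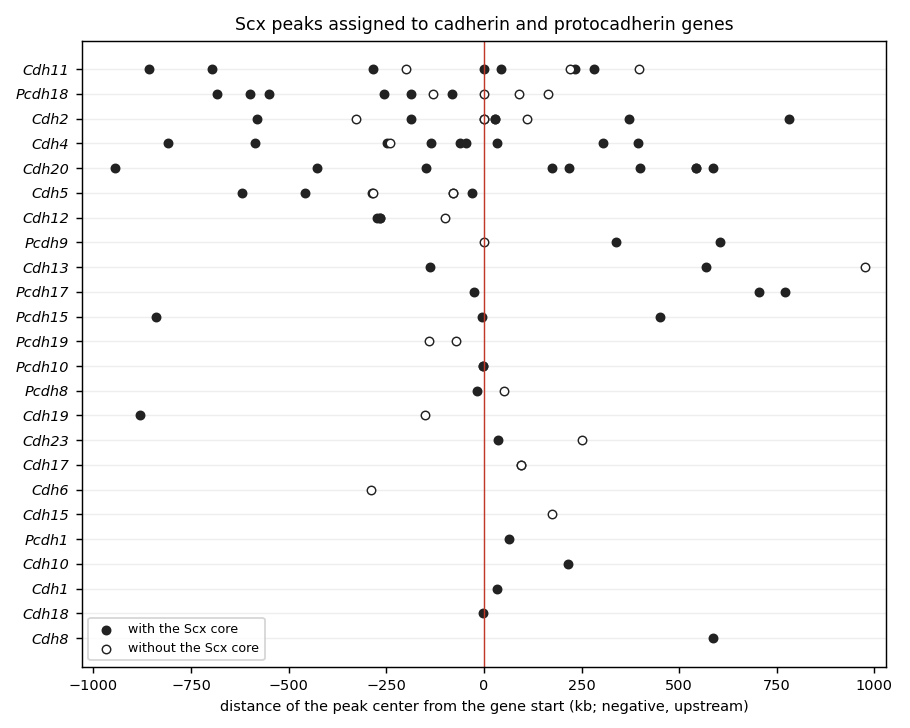
Distance of each assigned Scx peak center from the TSS (kb, negative upstream) for the 24 members outside the clusters with at least 1 peak, ordered by their number of peaks. Filled circles mark peaks that hold the Scx core and open circles those that do not. The first 6 genes, from Cdh11 to Cdh5, have 7 to 10 peaks each, spread widely along the chromosome, and few circles fall near the red line at the TSS.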

How the data were processed

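RNA-seq reads of sorted GFP+ forelimb cells were aligned by the authors to mm10 with STAR 2.7.4 and counted per gene with featureCounts, and Y chromosome genes were discarded. The study's methods also name RUVseq, applied to account for effects of sex. Whether the mean FPKM carry that correction is not known here. The authors deposited the mean FPKM of each group (3 samples each). The annotation and the handling of reads that match several genes are not given in the sources used here, and the library kits do not mark strand. The same table holds the authors' own fold changes, p-values, FDR and calls of Scx-/- against control, which were not used. For ChIP-seq, per the study's methods and the submitters' processing notes, libraries were brought to equal depth, duplicates were removed, peaks were called with HOMER 4.11 in each ChIP sample against input, merged over replicates and kept by an edgeR test (titled with 4-fold and an FDR of 0.01). The deposited score column is 0 for every peak. The reads behind a single FPKM value or peak are unknown.

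Computations used Python 3.11.15, numpy 2.4.6, pandas 2.3.3, pysam 0.24.0 and matplotlib 3.10.9. Members were found by symbol. Ratios used a pseudocount of 0.1 FPKM, a filter of 1 FPKM on the higher group mean and a 1.5-fold threshold with no test, since only group means were used. Peaks were assigned with 21843 protein-coding starts of GENCODE M21 by the basal plus extension rule. Coordinates count from 1. Exon models were RefSeq GRCm38. Steps were checked on simulated data. The design named members of at least 5 FPKM, past 1.5-fold, marking other cell types, with at least 5 peaks or with a peak within 5 kb of the TSS, the 3 highest of each clustered family and partner list, and up to 6 peaks with the Scx core, of which 1 is not reported here. Other members, the Cdh11 intronic peak and single marker genes were named after their values were seen. Members and lists were chosen with earlier results of these data known. Other pseudocounts, filters, thresholds and assignment rules were tried.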

Additional observations from a re-analysis of the deposited data

How the results depend on the processing

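The count of members past the threshold was 1 (Pcdhb2) as reported, with ratios centered on the median of all genes and without the alpha and gamma clusters. It was 0 at 2-fold, with a pseudocount of 1 FPKM and with a filter of 5 FPKM (34 genes). It was 2 with a pseudocount of 0.01 FPKM (Pcdhb2 lower and Pcdhb3 higher) and 3 without a filter (88 genes, Pcdhb2 lower and Cdh12 and Pcdhb6 higher). The median log2 ratio stayed between 0.0043 and 0.08 under all alternatives tried. With domains extended by at most 100 kb, 30 peaks were assigned to members in place of 90, and 17 of 87 members had a peak in place of 25. Under this rule 16 of the 31 members outside the clusters and 5523 of the 14681 matched genes had a peak. By the single nearest TSS, 25 members and 5132 matched genes had a peak. Within 50 kb of the TSS, 17 members and 7149 matched genes had a peak. For single members, 155 of 176 alternative log2 ratios were within 0.1 of the reported one, and the 21 others belonged to 16 members. Leaving out single samples and a stricter peak threshold could not be run, since the tables used here hold group means and no fold per peak. No paired analysis was possible because the table holds group means only. The values without the alpha and gamma clusters, and with shared exons counted once, were added after the data were seen.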

Other observations

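Cadherin superfamily genes outside the symbol rule are given as values. Fat1 had 53.5 FPKM in Scx-/- cells and 59.2 FPKM in control cells, Fat4 had 47.5 FPKM in Scx-/- cells and 43.6 FPKM in control cells, and Dchs1, which encodes the ligand of Fat4, had 22.9 FPKM in Scx-/- cells and 22.4 FPKM in control cells. Fat3 had 5.72 FPKM in Scx-/- cells and 7.38 FPKM in control cells. Pcdh11x, a delta protocadherin of the X chromosome, had 3.34 FPKM in Scx-/- cells and 2.64 FPKM in control cells, a log2 ratio of 0.33, whereas its X-linked relative Pcdh19 had a log2 ratio of 0.04. These are group means without a test, and the authors' own test of these genes was not used.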
